A study of Mus musculus with 18 samples.

Results

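A set of 10 genes made by bone and cartilage cells was followed through RNA from the mouse nasal mucosa, library by library: Ibsp, Bglap, Sp7, Alpl and Sost of osteoblasts and osteocytes, Ctsk and Acp5 of osteoclasts, and Acan, Matn1 and Comp of cartilage. They were picked by gene symbol, and all 10 were found among the 54532 genes of the count table. The mucosa of the nose lies on thin bone and cartilage. How much of either was in each sample is not stated in the labels, and some of the genes, such as Acp5, are also made by macrophages. Bulk poly(A) RNA was sequenced from 18 libraries in 3 groups of 6. CON is the control group, and what it was given is not stated in the labels. CRS mice, a model of chronic rhinosinusitis, received 20 µg of papain, a plant protease, in 20 µL through the nose on days 0 to 2 and again on days 7 to 11. C10 mice were taken to have had the same papain, since the treatment protocol describes it as given to CRS animals, and were given C10, called an APE1 inhibitor in the labels, at 10 mg/mL and 10 µL per side once a day for 10 days from the first papain dose. Age, strain and sex are not stated, nor whether each library is a separate mouse. The p-values below therefore measure the spread between these libraries, which may be technical. In bulk tissue, fewer cells of a type and less RNA per cell cannot be told apart.

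Bone is built by osteoblasts, which descend from mesenchymal cells through the transcription factors Runx2 and Sp7 (osterix). Osteoblasts lay down type I collagen, mineralise it with the help of the phosphatase Alpl, and secrete Ibsp (bone sialoprotein) and Bglap (osteocalcin). Those that become buried in matrix are osteocytes, which secrete Sost (sclerostin), an inhibitor of Wnt signalling. Osteoclasts are large cells of the monocyte lineage that dissolve bone with acid and with the protease Ctsk (cathepsin K), and carry the phosphatase Acp5 (TRAP). Cartilage is made by chondrocytes under Sox9. Its matrix holds the proteoglycan Acan (aggrecan) and the linking proteins Matn1 (matrilin 1) and Comp.

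Bglap has near-identical neighbours, which bears on how its reads could be assigned. The coding sequences of Bglap (chr3:88383501-88384464, minus strand) and Bglap2 (chr3:88377736-88378699), from GENCODE M21 on GRCm38, are shown with the bases that differ in capitals.
Bglap: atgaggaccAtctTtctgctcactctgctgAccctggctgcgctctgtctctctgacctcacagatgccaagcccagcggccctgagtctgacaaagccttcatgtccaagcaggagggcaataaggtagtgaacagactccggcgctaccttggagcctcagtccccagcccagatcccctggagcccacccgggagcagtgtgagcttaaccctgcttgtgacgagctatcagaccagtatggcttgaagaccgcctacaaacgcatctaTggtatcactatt
Bglap2: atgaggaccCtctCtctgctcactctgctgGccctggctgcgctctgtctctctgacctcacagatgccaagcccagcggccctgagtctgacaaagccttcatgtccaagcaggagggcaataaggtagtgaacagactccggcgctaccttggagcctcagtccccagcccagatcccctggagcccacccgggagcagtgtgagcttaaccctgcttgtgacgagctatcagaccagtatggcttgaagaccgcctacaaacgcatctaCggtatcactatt
Of 285 bases, 281 are the same, and the longest identical run is 241 bases. Bglap3 (chr3:88368616-88372743) shares 272 of 285 bases with Bglap. How the authors' counting treated reads that match more than 1 of these genes is not given in the sources used here, so the Bglap values are uncertain.

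Promoter sequences from RefSeq (GRCm38.p6), running from 250 bases before to 50 after a transcript start, were found for 8 of the 10 genes, in 11 windows. A pair is shown because they share a motif between an osteoclast gene and an osteoblast gene. In Acp5 (chr9:22130549-22130848, minus strand) the capitals mark TCATGTG, a core sequence bound by MITF and TFE factors, here as its reverse complement CACATGA. In Bglap (chr3:88384417-88384716, minus strand) they mark ACCACA, a core of RUNX sites, followed by CACATGA.
Acp5: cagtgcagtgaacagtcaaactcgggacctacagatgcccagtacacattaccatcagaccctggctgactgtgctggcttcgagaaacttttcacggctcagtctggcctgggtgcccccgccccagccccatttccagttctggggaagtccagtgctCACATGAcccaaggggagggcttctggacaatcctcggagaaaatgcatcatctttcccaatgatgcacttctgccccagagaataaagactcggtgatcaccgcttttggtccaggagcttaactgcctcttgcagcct
Bglap: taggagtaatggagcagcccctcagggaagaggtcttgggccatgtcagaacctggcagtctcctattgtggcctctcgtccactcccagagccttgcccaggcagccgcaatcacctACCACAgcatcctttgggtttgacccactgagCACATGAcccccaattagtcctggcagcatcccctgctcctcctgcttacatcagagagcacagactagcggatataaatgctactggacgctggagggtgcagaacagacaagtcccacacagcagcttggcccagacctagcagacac
TCATGTG, searched on both strands, was in 2 of the 11 windows, beside 3.77% of all 32851 windows. The RUNX motif searched first, AACCACA, was in 0 of the 11, beside 5.27% of all windows. The shorter ACCACA, which lies inside AACCACA, was added only after that result and after the Bglap sequence had been read. It was in 2 of the 11 windows, those of Bglap and Matn1, beside 16.8% of all windows, so its presence is a description chosen after the fact. ACAAAG, a core of SOX sites, was in 3 of the 11 (Acp5 and Alpl) beside 18.7%, and the AP-1 motif TGAGTCA in 0 beside 5.2%. These are matches of letters, not measured binding.

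Levels between genes were compared in the deposited FPKM, which divide by gene length. Ctsk stood highest, with a median FPKM of 53 over the 18 libraries (range 28 to 128). Ibsp followed at 23.1 (3.44 to 201), Acp5 at 19.8 (5.53 to 50.5) and Alpl at 19.4 (11.3 to 33.5). Bglap was at 9.12 (1.33 to 42.2), Comp at 4.94 (1.52 to 29) and Acan at 4.66 (0.487 to 53). Sp7, a transcription factor, was at 1.81 (0.806 to 6.87), Matn1 at 1.21 (0 to 26.7) and Sost at 0.143 (0.0273 to 1.02). The ranges of all neighbours in this order overlapped, and only Ctsk over Ibsp and Alpl over Bglap held in 17 of 18 libraries. The lowest and highest libraries lay 109-fold apart for Acan and 58.5-fold for Ibsp, but 4.58-fold for Ctsk and 2.96-fold for Alpl.

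Ibsp, which binds mineral in new bone, is given here in CPM (counts scaled to library size), as are all levels from here on. It was at 51.9, 39.9, 421, 80.2, 129 and 34.0 CPM in CON 1 to 6, at 112, 10.2, 43.8, 89.8, 7.25 and 60.6 in CRS 1 to 6, and at 70.8, 40.7, 53.5, 40.6, 10.5 and 19.5 in C10 1 to 6. CON 3 stood far above every other library, CRS 2 and CRS 5 were the lowest along with C10 5, and the 3 groups overlapped. Sp7 ran from 4.10 through a median of 6.89 to 23.6 CPM in CON, from 2.85 through 7.69 to 14.2 in CRS, and from 2.76 through 4.73 to 8.18 in C10. Its highest library was again CON 3, and the groups overlapped. Alpl was the steadiest of the 10, at 69.8 to 137 CPM (median 88.0) in CON, 46.6 to 126 (88.4) in CRS and 50.7 to 104 (66.4) in C10.

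Bglap was at 3.93 to 19.0 CPM (median 5.79) in CON, 4.23 to 26.1 (5.28) in CRS and 0.836 to 7.04 (5.12) in C10. The 26.1 CPM were in CRS 4 and the other 5 CRS libraries lay between 4.23 and 5.93, so the CRS mean (8.58) rested on that library. In CON both CON 3 (17.4) and CON 5 (19.0) were high, and the 3 group medians were close. Sost, the osteocyte gene, gave few counts, 92 over the 6 CON libraries, 65 over CRS and 32 over C10. Its level ran from 0.0568 to 2.11 CPM in CON, where 3 counts in a library correspond to 0.163 to 0.193 CPM over all 18, so single Sost values near that level are imprecise.

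Ctsk, the main collagen-degrading protease of osteoclasts, was at 74.3, 85.9, 196, 102, 165 and 78.2 CPM in CON, 120, 55.4, 93.6, 115, 43.2 and 66.6 in CRS, and 103, 80.3, 82.1, 52.2, 45.3 and 47.4 in C10. CON 3 and CON 5 were the highest, CRS 5 the lowest, and the groups overlapped. Acp5 was at 37.3, 36.3, 104, 67.2, 79.3 and 37.2 CPM in CON, 85.8, 11.4, 89.2, 70.1, 17 and 29.5 in CRS, and 64.4, 44.3, 57.7, 26.1, 20.4 and 23.9 in C10. The CRS libraries spread most, with CRS 2 and CRS 5 lowest of all 18 and CRS 3 second only to CON 3.

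Acan was at 29.9, 17.5, 401, 34.8, 86.5 and 8.36 CPM in CON, 87.3, 43.2, 7.41, 43.7, 162 and 105 in CRS, and 16.6, 94.3, 35.2, 12.9, 9.2 and 3.70 in C10. CON 3 was again the highest, but CRS 5, the lowest library for Ibsp and Ctsk, was second. Matn1, a cartilage-restricted matrix protein, gave 104, 5, 996, 5, 94 and 1 counts in CON, 66, 82, 1, 64, 161 and 124 in CRS, and 3, 88, 12, 21, 0 and 0 in C10. Matn1 was thus high or near 0 in libraries of the same group. The 2 zero libraries, C10 5 and C10 6, allow up to 3 counts each, by counting error alone. Comp was at 8.74 to 86.9 CPM (median 14.4) in CON, 13.7 to 37.2 (24.1) in CRS and 4.60 to 32.1 (8.09) in C10.

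**Figure D1:**
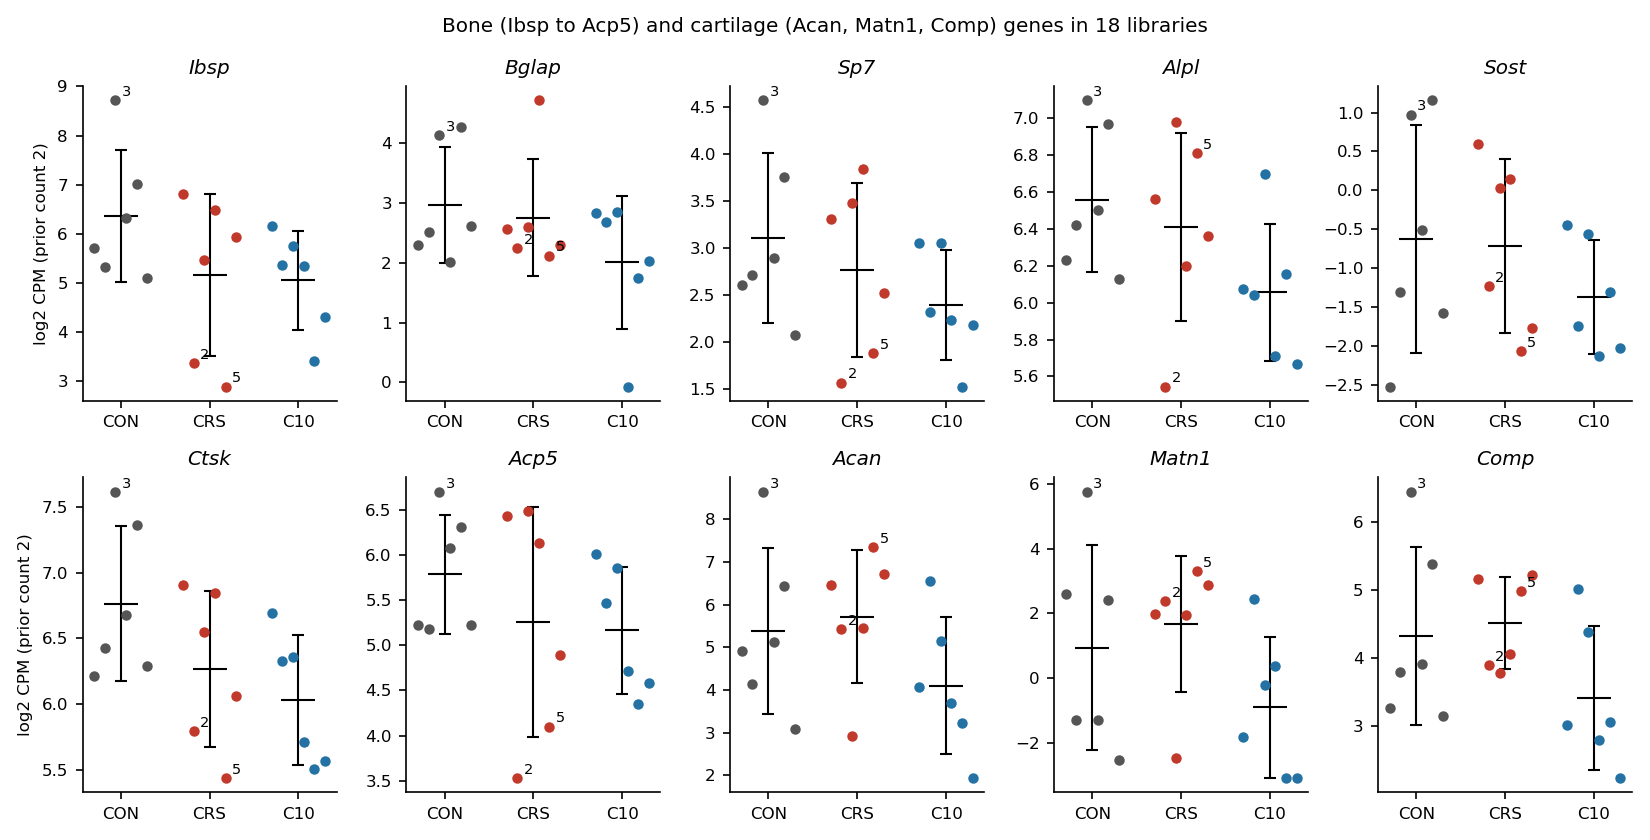
Log2 CPM (prior count 2) of each of the 10 genes in the 6 CON, 6 CRS and 6 C10 libraries; each point is 1 library, the black bar is the mean ± SD of log2 CPM, and the points labelled 3, 2 and 5 are CON 3, CRS 2 and CRS 5. CON 3 is the highest library for 8 of the 10 genes, and the groups overlap for every gene.

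Spread inside the groups was wide for these genes. The SD of log2 CPM within groups was 2.53 for Matn1, 1.71 for Acan and 1.36 for Ibsp, beside a median of 0.277 over the 18291 genes tested. That put Matn1 at percentile 99.7, Acan at 99.3 and Ibsp at 98.9 of all genes tested. Comp (1.04), Bglap (1.02) and Acp5 (0.922) were above percentile 96, and Sp7 (0.817) at 93.8. Sost (1.14) was at 98.3, and Ctsk (0.562) and Alpl (0.43) were at 81.7 and 69.4. Among genes of similar level the members stood at percentile 92.9 (Alpl) to 99.9 (Ibsp), with Ctsk at 97.5. The group explained 9.09 to 26.4% of the variance of a member, beside a median of 15.5% over all genes.

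**Figure D2:**
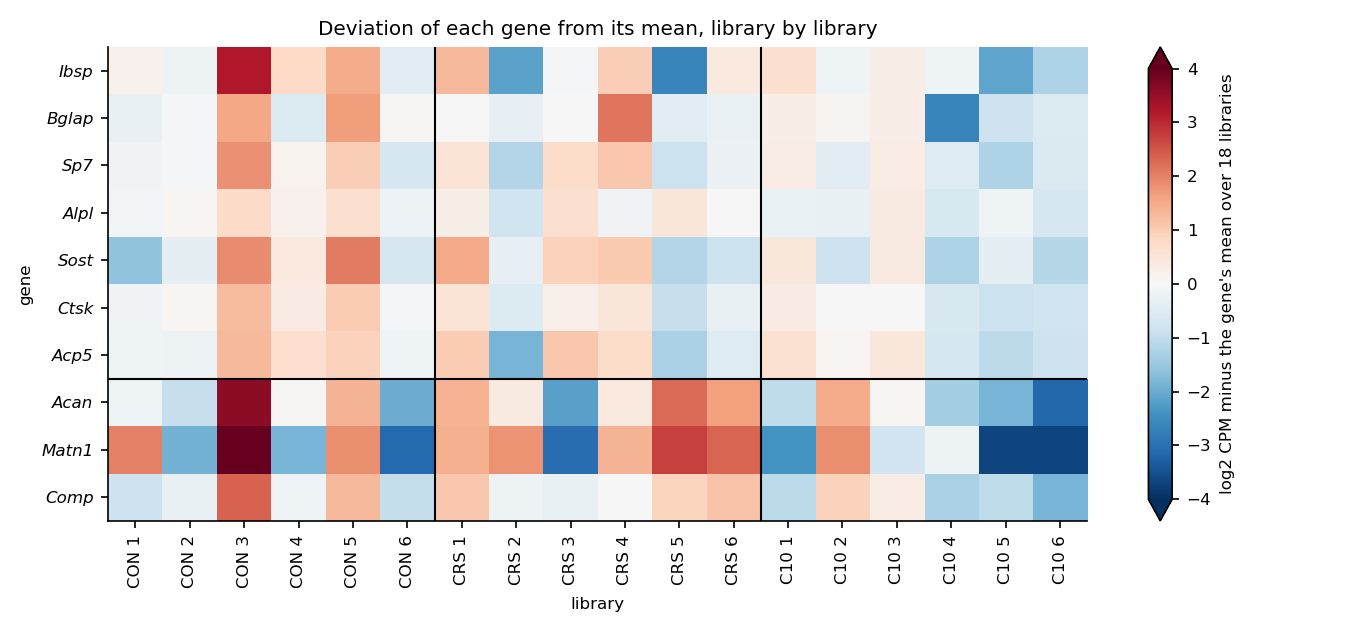
Each gene's log2 CPM minus its own mean over the 18 libraries, by library (columns, grouped as CON, CRS and C10) and gene (rows, with bone genes above the line and cartilage genes below). CON 3 is high in all rows, whereas CRS 5 is low for Ibsp and Ctsk and high for Acan and Matn1.

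The bone genes moved together from library to library, as did the cartilage genes, but markers of some other cell types also rose and fell with the bone genes. Pearson correlations of log2 CPM over the 18 libraries were computed for all 45 pairs of the 10 genes, with permutation tests adjusted over the 45 pairs by Benjamini-Hochberg. Among the 21 pairs of bone genes r was 0.491 to 0.914 (median 0.712), and 19 passed by Pearson and 17 by Spearman; the 3 cartilage pairs had r of 0.791 to 0.924 and all passed. Of the 21 pairs of a bone and a cartilage gene, 5 passed by Pearson (r 0.102 to 0.685, median 0.405) and 2 by Spearman. The 2 kinds of pair were not tested against each other, and the libraries share depth and tissue make-up. As a description over the same 18 libraries, the median r of fibroblast markers was 0.805 with Ctsk and 0.747 with Ibsp. With Ctsk the osteoclast list had 0.664 and macrophage markers 0.734. Macrophage markers had a median r of 0.813 with Acp5, where the osteoclast list had 0.617. A list of osteoblast genes had 0.766 with Ctsk, 0.793 with Ibsp and 0.774 with Acp5. A short list of osteocyte genes had 0.837, 0.824 and 0.83. Single osteoblast genes ran from -0.729 to 0.965 with Ctsk, and single osteoclast genes from -0.835 to 0.874 with Acp5. Single fibroblast markers ran from 0.699 to 0.939 with Ctsk, and single macrophage markers from 0.636 to 0.902 with Acp5. Olfactory neuron markers had a median r of -0.878 with Acp5. With Acan the fibroblast and macrophage medians were 0.292 and 0.139.

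Ctsk and Ibsp, grouped here under osteoclasts and osteoblasts, had r = 0.914 (permutation p = 1e-05, adjusted 5e-05). That p is the smallest the 100000 permutations can give. Spearman rho of the pair was 0.884 (permutation p = 2e-05, adjusted 0.000112). Without the 2 libraries farthest from the median Ctsk, r was 0.87. Acan and Matn1 had r = 0.918 (permutation p = 1e-05, adjusted 5e-05) and rho = 0.896 (permutation p = 1e-05, adjusted 7.5e-05), and r = 0.876 without the 2 farthest libraries. Between the 2 tissues, Ibsp and Acan had r = 0.42 (permutation p = 0.0823, adjusted 0.109) and rho = 0.404 (permutation p = 0.0985, adjusted 0.139). It was 0.519 without the 2 libraries farthest in Ibsp, and 0.189 without CON 3, where 1 of the 21 bone and cartilage pairs passed.

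Within single groups the bone pairs stayed positive in 21 of 21 pairs in CON, 20 in CRS and 21 in C10. Bone and cartilage pairs were positive in 21 of 21 in CON (median r 0.898), 2 of 21 in CRS (median -0.307) and 19 of 21 in C10 (median 0.419). For Ibsp and Acan r was 0.984 in CON (exact permutation p = 0.00139, adjusted 0.0156, n = 6), -0.187 in CRS (exact permutation p = 0.758, adjusted 0.839) and 0.543 in C10 (exact permutation p = 0.265, adjusted 0.51). The difference between groups was not tested. By Pearson, 29 of the 45 pairs passed in CON, 0 in CRS and 0 in C10, each over 6 libraries. By Spearman 7 of 21 bone pairs, 8 of 21 bone and cartilage pairs and 1 of 3 cartilage pairs passed in CON. In C10 6 pairs of bone genes passed by Spearman, and in CRS 0 pairs did. The CON values include CON 3, the highest library for 8 of the 10 genes.

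**Figure D3:**
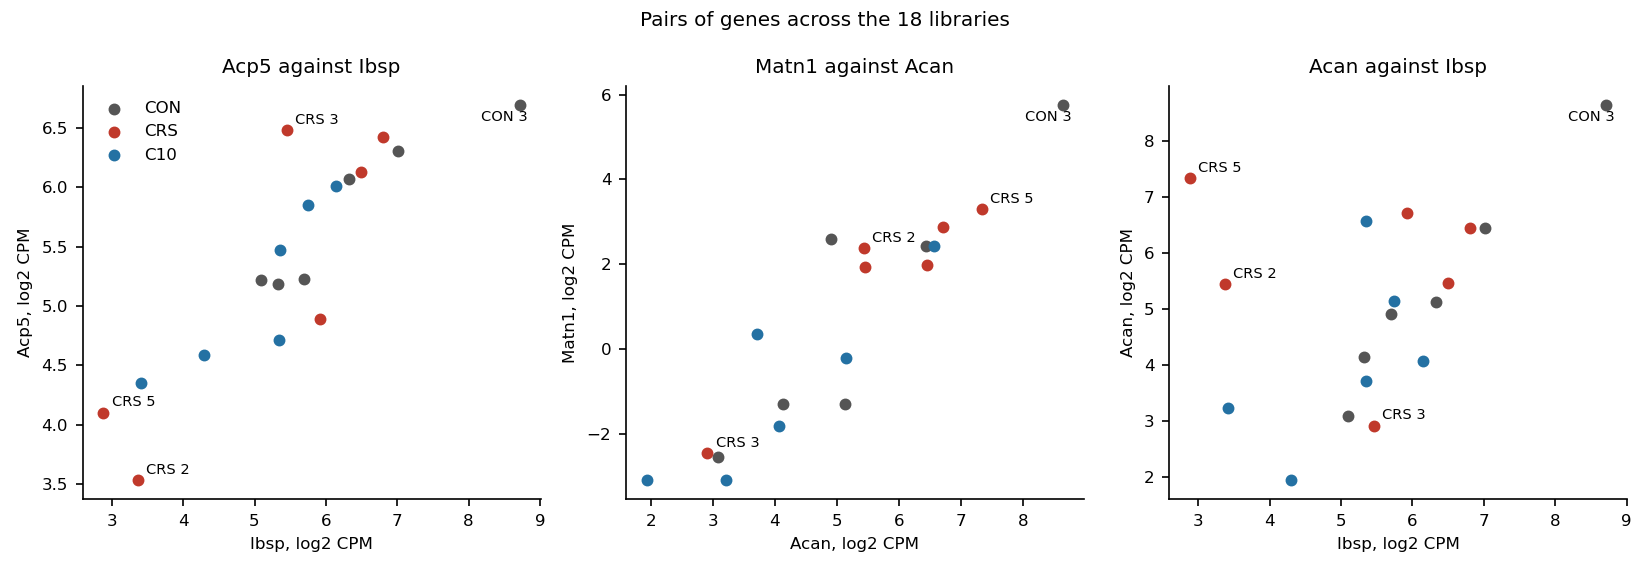
Log2 CPM of Acp5 against Ibsp, Matn1 against Acan, and Acan against Ibsp, with 1 point per library coloured by group and CON 3, CRS 2, CRS 3 and CRS 5 named. Acp5 against Ibsp and Matn1 against Acan follow a line (r = 0.872 and r = 0.918). Acan against Ibsp is scattered (r = 0.42), with CRS 5 low in Ibsp and high in Acan. Acp5 also rose and fell with macrophage markers (median r 0.813).

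**Figure D4:**
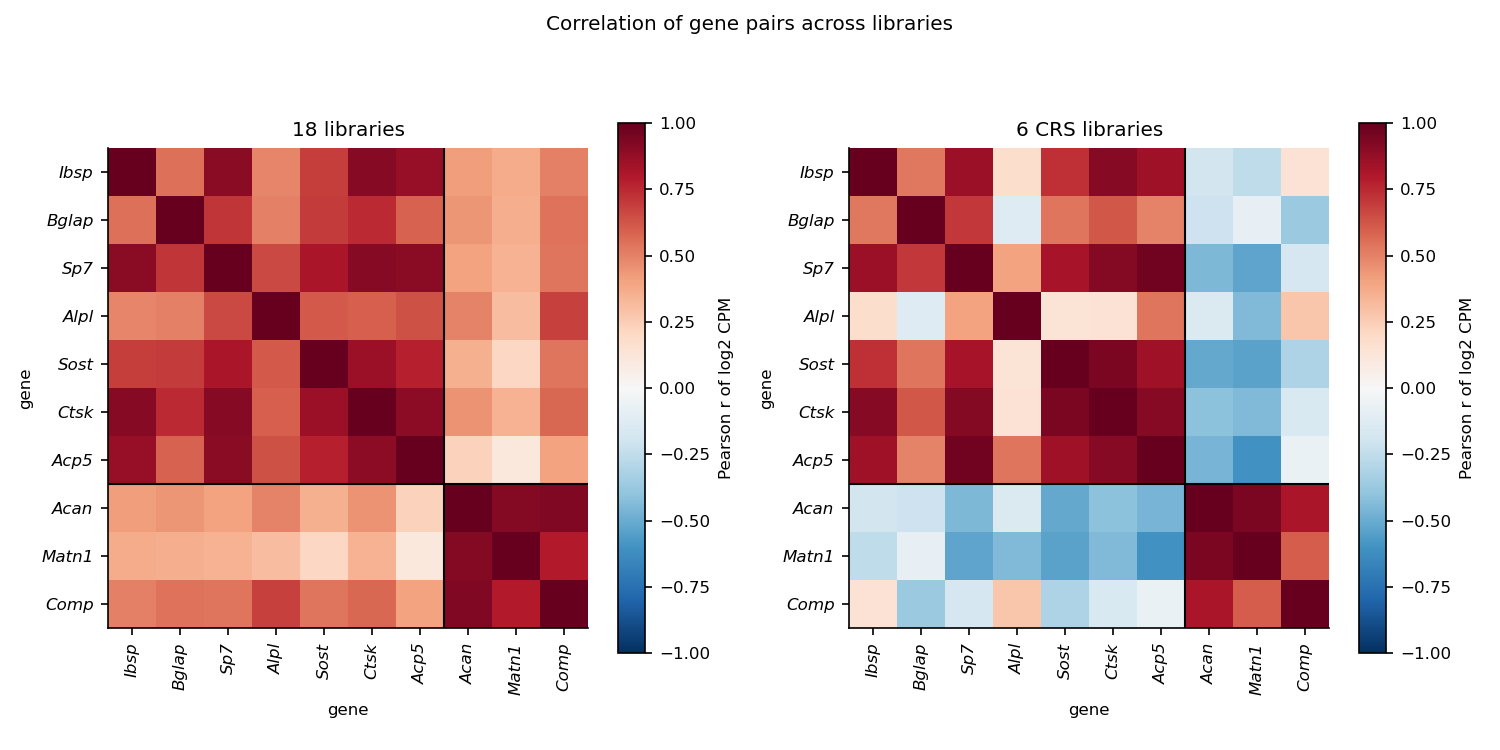
Pearson r of log2 CPM between the 10 genes, over the 18 libraries (left) and over the 6 CRS libraries (right). The bone block and the cartilage block are positive on the left, and in CRS 2 of the 21 bone and cartilage pairs are above 0.

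The first comparison, CRS against CON, asks how papain changed the tissue. Of the 10 genes, 0 passed an adjusted p of 0.05 in edgeR's quasi-likelihood test, where 1 of the 18291 genes did (0.00547%). That share rested on CRS 1: without it 994 of 18452 genes passed (5.39%), and still 0 of the 10. Unadjusted, 0 of the 10 were under 0.05, beside 14% of all genes, and 0 of the 10 passed in DESeq2 or limma-voom, which called 1.08% and 5.14%. The groups overlapped for all 10 (0.662% of genes did not). All 10 log2 differences were below 0, beside 49.2% of all genes, with a median of -0.37 beside 0.0045 for all genes. All 8 fibroblast markers (median -0.574, 62.5% under 0.05 unadjusted) and all 10 macrophage markers (median -0.398, 10%) were below 0 too. All 8 olfactory neuron markers were above 0. In each of these lists 0 were called, and their part in the result was not tested. The 10 genes are correlated, so their directions are not 10 independent observations, here or in the next comparisons. Ibsp was at 126 ± 149 CPM in CON and 53.9 ± 42.1 in CRS (SD, n = 6 each), a log2 difference of -1.22 ± 0.69 (SE, edgeR adjusted p = 0.434). Ctsk differed by -0.51 ± 0.30 (edgeR adjusted p = 0.457) and Matn1 by -1.15 ± 1.18 (0.687). Alpl differed by -0.12 ± 0.23 (0.833) and Bglap by -0.14 ± 0.55 (0.931).

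The sign of 5 of these 10 differences rested on CON 3. Without it 5 of the 10 were below 0, with a median of 0.037: Acan stood at 1.08 ± 0.77 (edgeR adjusted p = 0.627), Matn1 at 1.07 ± 1.11 and Comp at 0.49 ± 0.51, and Ibsp at -0.31 ± 0.60. With all libraries in, the CPM medians of 6 of the 10 genes were higher in CRS than in CON, at 65.5 against 32.4 for Acan, 4.46 against 2.76 for Matn1, 24.1 against 14.4 for Comp, 7.69 against 6.89 for Sp7, 88.4 against 88.0 for Alpl and 0.606 against 0.437 for Sost, so their sign differed from that of the fitted difference. Bglap also turned above 0 without CON 5 (0.201) or CRS 5 (0.0138), Sost without CON 5 (0.117) and Alpl without CRS 2 (0.0143). With CON 3, CRS 2 and CRS 5 all left out, which was chosen after seeing the data, 1 of the 10 was below 0 and the median was 0.437.

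C10 against CRS asks what the compound changed in papain-treated mice. Again 0 of the 10 genes passed, beside 0.082% of all genes (15 of 18291), and 0 were under 0.05 unadjusted, beside 13.2%. DESeq2 called 0 of the 10 (1.91% of genes) and limma-voom 0 (3%). All 10 were below 0, beside 48.3% of all genes (median -0.69 beside 0.0084), and the groups overlapped for each (0.88% of genes did not). Macrophage markers were below 0 in 9 of 10 (median -0.587) and fibroblast markers in 6 of 8 (median -0.224). In either list 0 were called, and their part was not tested. Matn1 differed by -2.0 ± 1.28 (edgeR adjusted p = 0.536), Acan by -1.39 ± 0.89 (0.540) and Comp by -0.90 ± 0.58 (0.539), the 3 cartilage genes. Alpl differed by -0.38 ± 0.23 (0.503) and Acp5 by -0.36 ± 0.46 (0.808). The median of the 10 was -0.355 without CRS 4 and -0.283 with voom. It was -0.97 without CRS 2 and CRS 5, chosen after seeing the data, which removes the lowest CRS libraries for several of the genes.

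C10 against CON compares both exposures with the controls. Here too 0 of the 10 passed, beside 0.159% of all genes (29 of 18291); DESeq2 and limma-voom called 0 of the 10, beside 1.77% and 1.38%. The 4 genes under 0.05 unadjusted were Ctsk (edgeR adjusted p = 0.284), Ibsp (0.313), Matn1 (0.313) and Alpl (0.345), which is 4 of 10 beside 13.1% of all genes. Markers of other cells lay the same way: all 8 fibroblast markers were below 0 (median -0.742, 87.5% under 0.05 unadjusted), as were all 10 macrophage markers (median -0.753, 60%), with 0 called in either list, and their part in the result was not tested. All 10 bone and cartilage genes were below 0, beside 47.4% of all genes (median -1.06 beside 0.012), and the groups overlapped for each (1.82% of genes did not). Ctsk was at 117 ± 51.1 CPM in CON and 68.4 ± 23.6 in C10 (SD, n = 6 each), a log2 difference of -0.77 ± 0.30 (SE). Ibsp differed by -1.68 ± 0.70 and Matn1 by -3.15 ± 1.31. Without CON 3 these were -0.56 for Ctsk, -0.77 for Ibsp and -0.93 for Matn1, and the median of the 10 was -0.50. Each pair of the 3 comparisons shares a group of libraries, so their directions are not independent.

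**Figure D5:**
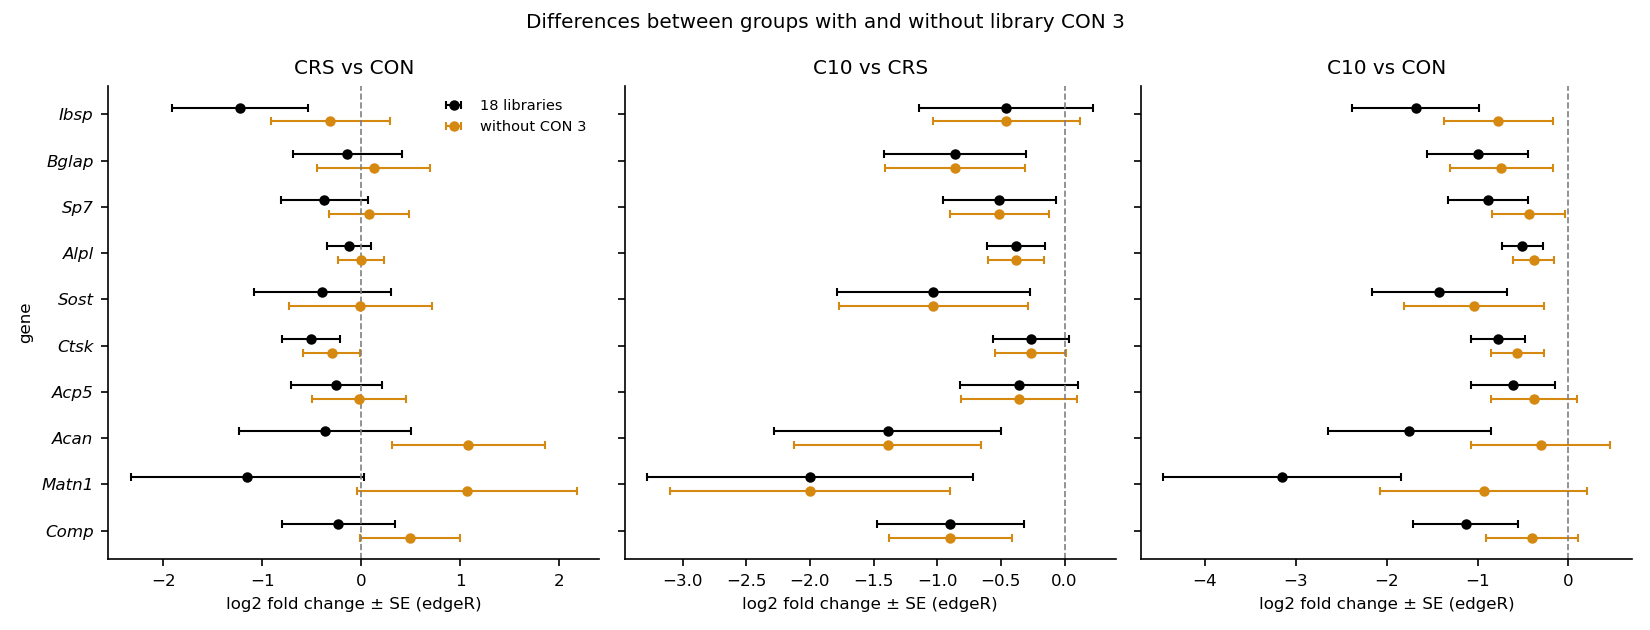
Log2 difference of each gene in the 3 comparisons, with bars of ± 1 SE; black is the fit of 18 libraries and orange the fit without CON 3. In black all 10 genes lie below 0 in each comparison, and in orange 5 of 10 do in CRS against CON.

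Wider lists of the same cell types were read beside the 10 genes. Of 18 osteoblast genes, 14 were below 0 in CRS against CON (median -0.42), 13 in C10 against CRS (-0.23) and 15 in C10 against CON (-0.48), with 0 called in each by edgeR on all libraries, DESeq2 or voom. Without CON 3 the first count was 7 of 18 and the last 10 of 18 (median -0.139), and the C10 against CRS median was -0.088 without CRS 4 and -0.103 without CRS 1. With Ibsp, itself a member of the set, as a covariate, Spp1 (-1.07, edgeR adjusted p = 0.0438) and Mmp13, a collagenase (0.721, 0.0397), passed in C10 against CRS. Mmp13 also passed in that fit in C10 against CON (1.04, 0.0209). By edgeR on all libraries without the covariate, Mmp13 passed in neither. Its mean was 76.6 CPM in CON, 38.7 in CRS and 57.25 in C10, and its medians were 39.75, 39.88 and 57.49. Its direction against CON thus differed between mean and median. Runx2, the regulator above Sp7, differed by -0.37, 0.27 and -0.10 in the 3 comparisons, in that order. Col1a1, the chain of bone and skin collagen, stood at -1.16 ± 0.39 in C10 against CON (edgeR adjusted p = 0.223). Spp1 (osteopontin) ran from 108 to 499 CPM in CON, 75.2 to 440 in CRS and 46.6 to 154 in C10, at -1.19 ± 0.47 against CRS (0.282). Bglap2 differed by 0.28, -1.15 and -0.87, and Bglap3 by 0.51, -0.25 and 0.26. Of the 5 osteocyte genes, 4 were tested and 0 called. Dmp1, a mineral-binding osteocyte protein, was at -0.35, -0.61 and -0.96.

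Of 18 osteoclast genes, 17 were tested, and 1, Gpnmb, was called by edgeR on all libraries without a covariate. In CRS against CON 15 of the 17 were below 0 (median -0.28), and in C10 against CON 14 (-0.38). In C10 against CRS 10 were below 0 and 7 above, with a median of -0.0045. DESeq2 also called Atp6v0d2 and, in C10 against CON, Clcn7, a chloride transporter (-0.38, DESeq2 adjusted p = 0.0498). In C10 against CRS, edgeR called Atp6v0d2 with Ibsp as a covariate (-0.797, edgeR adjusted p = 0.0438). It did so too without CRS 2 and CRS 5, chosen after seeing the data (-1.1, edgeR adjusted p = 0.049). Voom also called Mmp9 and Jdp2 in CRS against CON, Jdp2 at -0.416 (voom adjusted p = 0.047). Gpnmb, a membrane glycoprotein of osteoclasts and also of macrophages, was at 249 to 1115 CPM in CON, 110 to 787 in CRS and 16.7 to 77.3 in C10, with no overlap of C10 with either group. It fell by 3.30 ± 0.56 on the log2 scale in C10 against CRS (edgeR adjusted p = 0.0239) and by 3.67 ± 0.57 against CON (0.0122). The first call was lost without CRS 3 (0.0604), C10 2 (0.0797), C10 3 (0.0698), C10 4 (0.0734) or C10 6 (0.0607), and the second without C10 4 (0.0556) or C10 5 (0.0514), at differences of -3.16 to -3.54. The first was also lost in a fit of only the CRS and C10 libraries (0.058). Atp6v0d2, a subunit of the osteoclast proton pump, was at -0.86 ± 0.24 against CRS (edgeR adjusted p = 0.151; DESeq2 0.0367) and -0.87 ± 0.24 against CON (edgeR adjusted p = 0.152; DESeq2 0.0378). Mmp9, a gelatinase also made by neutrophils, was at -1.14 ± 0.42 in CRS against CON (edgeR adjusted p = 0.254); it passed with voom (-1.33, adjusted p = 0.0279) and in edgeR without CRS 1 (-1.62, adjusted p = 0.0267). Nfatc1, the master regulator of osteoclasts, was at 0.24, -0.24 and 0.0033.

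Of 23 cartilage genes, 21 were tested and 0 called by edgeR in each comparison, whereas DESeq2 called Sox6, a partner of Sox9, in C10 against CON (-0.865, DESeq2 adjusted p = 0.046). By edgeR 17, 19 and 20 were below 0 (medians -0.20, -0.71 and -0.89). Without CON 3, 5 of 21 were below 0 in CRS against CON and the median was 0.44, as it was with voom. In C10 against CON 17 of 21 were below 0 without CON 3, with a median of -0.197, and the voom median was -0.136. Col2a1, the main collagen of cartilage, was at 250 CPM in CON 3 and 3.88 to 63.0 in the other CON libraries. Hapln1, which anchors aggrecan, differed by -0.13, -0.96 and -1.08. Sox9 differed by 0.18, -0.27 and -0.095, and Col9a1 by -0.24, 0.45 and 0.21. Both are also made outside cartilage.

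Other tissues differed between the same libraries. Fibroblast markers, all 8 tested, summed to 1390 to 2570 CPM in CON, 774 to 2370 in CRS and 853 to 1460 in C10. Macrophage markers (10 of 10 tested) summed to 508 to 1230, 228 to 1250 and 339 to 709. Olfactory neuron markers (8 of 8 tested) summed to 2930 to 7170, 3410 to 8710 and 4360 to 7590. CRS 2 and CRS 5, the lowest libraries for Acp5 and Ibsp though CRS 5 was 4th highest for Alpl, were at 8713 and 8336 for olfactory neuron markers, 942 and 774 for fibroblast and 228 and 341 for macrophage markers. CON 3, highest for most bone and cartilage genes, had 1183 CPM of erythroid markers, whose sums started at 146 in CON and ran from 76.5 to 328 in CRS and 73.8 to 361 in C10. No gene of these lists was at 0 in all libraries. Their part in the bone and cartilage values was not tested.

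The genes whose log2 CPM most resembled a member's over the 18 libraries were named from 14978 candidates, by Pearson r and with no test. For Ibsp they were Angptl2 (0.957), Tnc and Tnn (both 0.95), Pth1r (0.942) and Antxr2 (0.923). For Ctsk they were Pth1r (0.965), Col1a2 (0.958), Wisp1 (0.956), Angptl2 (0.955) and Sparc (0.946). Acp5 was most like Tnfrsf1b (0.946), Cd53 (0.943), Rap1b (0.942), Rgs19 (0.941) and Fgd3 (0.94). Matn1 was most like Ucma (0.941), Col10a1 (0.937), Acan (0.918), Slc6a12 (0.909) and Meltf (0.885).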

How the data were processed

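RNA of the nasal mucosa was read as deposited counts per gene and, for levels between genes, as the authors' FPKM; the counts are raw, with aligner, counter, annotation and strand setting not given in the sources used here. Build mm10 is named per the submitters' processing notes. Libraries held 15883573 to 18433866 counts, so 3 counts are 0.163 to 0.193 CPM. The 10 genes and all lists were chosen with earlier results of these data known. Groups came from the labels.

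All genes were fitted together in edgeR 4.0.16 (R 4.3.3; TMM, filterByExpr, quasi-likelihood test, 1 mean per group, 18 libraries), which tested 18291 genes, 10 of the 10 included, with Benjamini-Hochberg adjustment and a threshold of 0.05. DESeq2 1.42.0, limma 3.58.1, other filters, a replicate block, Ibsp as a covariate and left-out libraries were alternatives. Correlations used log2 CPM with a prior count of 2 and 100000 permutations, or all 720 pairings within a group. Chi-square over degrees of freedom was at least 14.5 in all 153 library pairs, above sampling noise. Tested on simulated data, the fit recovered 66 of 100 2-fold changes for CRS against CON (18118 genes), 73 for C10 against CRS (18113) and 76 for C10 against CON (18120). Of 100 1.5-fold changes it recovered 33, 43 and 42, in that order. False calls numbered 3, 6 and 0. Genes were simulated independently of each other, whereas the bone genes here were correlated. The changed genes were drawn at random from expressed genes at large. All 10 bone and cartilage genes spread more inside groups than the median gene, so recovery was not measured for genes like them. The text names the 10 genes, any gene called in the bone and cartilage lists (those called only under an alternative were named after their values were seen), 14 further list genes fixed by name, and the 5 genes most like each of Ibsp, Ctsk, Acp5 and Matn1. The marrow precursor genes named under other observations were outside this rule. The promoter motif ACCACA was added after the first RUNX motif had matched no window and a sequence had been read.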

Additional observations from a re-analysis of the deposited data

Results flagged for a closer look

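Bglap was at 26.1 CPM in CRS 4, while the other 5 CRS libraries lay between 4.23 and 5.93 CPM; the gap to the nearest was 0.816 of the group's range, past Dixon's critical value. Its near-copy Bglap2 was also highest there among the CRS libraries, at 17.1 CPM against 1.69 to 4.86. Matn1 was at 0.0644 CPM, a single count, in CRS 3, while the others lay between 3.71 and 9.73 CPM, a gap of 0.764 of the range. These are 2 of 30 sets of 6 libraries, and chance flags about 1 in 20.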

How the results depend on the processing

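In each comparison 0 of the 10 genes passed under the 30 alternative fits, with 0.167 the lowest adjusted p of any member in any of them. Of 891 log2 differences under alternatives, 846 kept their direction and 45 changed sign, 42 of them in CRS against CON. With the replicate block 0 members were called in each comparison, and Acan was at 0.737, Matn1 0.491 and Comp 0.284 in CRS against CON; Gpnmb in C10 against CRS had an adjusted p of 0.052. Whether libraries with the same number pair was not settled: of 18 pairs 8 had r over 0.1 (range -0.574 to 0.519), and 5 of 18 libraries matched best with their own number. Between CRS and C10 r was 0.519, 0.235, 0.358, -0.231, 0.291 and 0.0131 for numbers 1 to 6. No level expected by chance was computed. The other values above 0 in CRS against CON were as follows. With voom Acan was at 1.1, Matn1 2.12 and Comp 0.741. With FPKM plus 1 they were at 0.259, 0.0999 and 0.141, and plus 0.1 at 0.326, 0.647 and 0.195. With Ibsp as a covariate Acp5 was at 0.303, Bglap 0.453, Sp7 0.376, Alpl 0.0509, Acan 1.29, Matn1 1.06, Comp 0.713 and Sost 0.59. Without CRS 2 and CRS 5 Acp5 was at 0.202, Bglap 0.187, Sp7 0.015 and Sost 0.0272. Without CON 3, CRS 2 and CRS 5 Acp5 was at 0.425, Ibsp 0.199, Bglap 0.449, Sp7 0.459, Alpl 0.0849, Acan 0.785, Matn1 0.664, Comp 0.548 and Sost 0.406. Leaving out 1 library gave -0.739 to 1.08 for Acan, -1.45 to 1.07 for Matn1, -0.42 to 0.494 for Comp, -0.894 to 0.201 for Bglap, -0.62 to 0.0754 for Sp7, -0.771 to 0.117 for Sost and -0.247 to 0.0143 for Alpl. In C10 against CRS Acp5 was at 0.213 with voom; in C10 against CON, with the Ibsp covariate, Acp5 was at 0.161 and Sp7 0.0104. The cause was not tested. Of 45 gene pairs 27 passed over all libraries, 23 after centring on group means, 29 within CON, 0 within CRS and 0 within C10 by Pearson. Calls over all genes moved with the tool: 1, 15 and 29 by edgeR, 179, 350 and 318 by DESeq2, 940, 548 and 252 by voom. They moved as much with 1 library in edgeR: CRS against CON had 994 without CRS 1, C10 against CRS 81 without CRS 2, and C10 against CON 110 without CRS 1 and 3 without C10 4; C10 against CON had 161 with only those 2 groups. Low counts limit Sost and Matn1.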

Other observations

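Other tissues a dissection could carry were read from fixed lists. Skeletal muscle markers summed to 45 CPM in CON 5, one of the highest libraries for the bone genes, 2.95 to 4.87 in the other CON libraries, 3.04 to 6.34 in CRS and 2.45 to 4.98 in C10. Tooth genes summed to under 1 CPM in every library, and 0 of the 8 passed the filter on low counts. Of 13 marrow precursor genes 4 were tested. Mpo, an enzyme of neutrophil precursors, ran from 0 to 15.6 CPM in CON with a median of 0.115, and up to 1.57 in CRS and 3.38 in C10. Elane, another such enzyme, ran from 0 to 8.4 CPM in CON with a median of 0.143, and up to 1.10 in CRS and 1.51 in C10, so high values were not shared by most CON libraries.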
